A study of Homo sapiens with 10 samples.

Results

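DUCAP and VCAP, 2 human prostate cancer cell lines that both carry high ERG transcript levels, were compared gene by gene. They were chosen as the most similar pair among the 5 lines profiled. The comparison rests on 4 of the 10 samples of the series, 2 biological repeats of each line. Of 60642 gene symbols in the deposited table, 13551 had at least 1 TPM (a transcript level scaled for gene length and for the total of the sample) in at least 2 of these 4 samples and were tested. A filter of this kind admits genes through the line in which they are high: 205 genes passed through both DUCAP repeats with no VCAP repeat at 1 TPM, and 809 through both VCAP repeats with no DUCAP repeat at 1 TPM. DUCAP and VCAP cells were untreated, grown in phenol-red free RPMI with fetal bovine serum (5 to 10% in the sample labels, 5% in the methods) and harvested while growing exponentially. DUCAP had been a gift from another laboratory. The other 3 lines, LNCAP, PC3 and DU145, were cultured alike, and they entered the fit to estimate the spread between repeats. RNA was read as polyA-enriched, strand-specific bulk libraries, in which fewer cells of a kind and less RNA per cell cannot be told apart. A repeat is a sample of 1 line, so the tests below speak of these cultures and not of tumours.

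VCAP was established from a vertebral and DUCAP from a dural metastasis of the same prostate cancer. Both are known for the TMPRSS2-ERG gene fusion, in which the androgen-driven promoter of the protease gene TMPRSS2 controls ERG, a transcription factor of the ETS family, and both respond to androgen. Androgen signalling acts through DNA elements near genes such as KLK3 and drives the secretory programme of luminal prostate cells, whose product KLK3 (prostate-specific antigen, PSA) is the common blood marker of the disease.

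Levels of markers in both lines are given first. The pair was chosen with its high ERG known, so ERG is no independent check of the labels. FOLH1, another prostate marker, was near absent from DUCAP, at 1.77 and 1.99 TPM, and is described below. ERG stood at 122 and 128 TPM in DUCAP and at 199 and 153 TPM in VCAP, against at most 0.17 TPM as the mean of any other line. The luminal keratins KRT8 and KRT18 were expressed in all 4 samples, with the lowest value 98.95 TPM for KRT8 in DUCAP. Both were below every sample of the other lines, whose lowest values were 238 TPM for KRT8 and 363 TPM for KRT18. Markers of endothelial, immune and fibroblast cells were low. The 7 endothelial markers summed to 0.08 to 0.64 TPM and the 12 immune markers to 0.72 to 1.65 TPM over the 4 samples. The 9 fibroblast markers summed to 1.08 and 2.01 TPM in DUCAP and to 7.09 and 7.11 TPM in VCAP, and 2 of them were tested. Of these LUM, a small proteoglycan of connective tissue, was lower in DUCAP at 0.98 and 1.61 TPM against 5.35 and 5.12 TPM. The 9 nerve and glia markers summed to 14.2 and 18.8 TPM in DUCAP and to 27.46 and 26.06 TPM in VCAP. Nearly all of that was MBP, the only one tested, which was lower in DUCAP at 13.93 and 18.25 TPM against 27.04 and 25.49 TPM (log2 fold change −0.68).

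The 2 lines were close, relative to the rest of the series, but they were chosen for this, so the closeness is no independent result. All pairs of lines were compared over the genes filtered on the DUCAP and VCAP samples. Genes expressed only in other lines are thus left out. Over the tested genes the median absolute difference between line means was 0.35 on the log2(TPM + 1) scale, and 1450 genes differed at least 2-fold. Between any other pair of lines the median was 0.53 to 0.95 and 3283 to 6487 genes differed 2-fold. Within a line, 128 genes differed at least 2-fold between the DUCAP repeats and 304 between those of VCAP.

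In the limma test, 3398 of the 13551 genes were called (25.1%, adjusted p under 0.05), 818 of them higher in DUCAP (6.04%) and 2580 lower (19%). A change of at least 2-fold was seen in 263 called genes that were higher (1.94%) and 1098 that were lower (8.1%). This split moves with the scaling, since TPM are shares of a total. The median log2 fold change of all genes was −0.17. It was 0.03 after quantile normalization, when 1658 genes were higher and 1767 lower, and 0.02 after median-ratio scaling, when 1684 were higher and 1869 lower. Without the mitochondrial genes it was −0.21, with 860 higher and 2992 lower. A stricter set was therefore formed, after these values had been seen, of genes called in the same direction under all 4 scalings. It holds 771 genes higher in DUCAP (5.69%) and 1642 lower (12.1%). These last shares are the background for the list counts below. A gene that passed the filter through 1 line alone had little room to go the other way, and 571 of the 809 that passed through VCAP alone are among the 1642. Of the 12537 genes that passed otherwise, 5.1% were higher and 8.54% lower under all 4 scalings. Mitochondrially encoded genes took 35.5 and 32.1% of the TPM in DUCAP and 36.0 and 34.5% in VCAP, so the lines overlapped (exact permutation test, two-sided, p = 0.667, and 2 against 2 samples cannot go below 0.333).

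**Figure D1:**
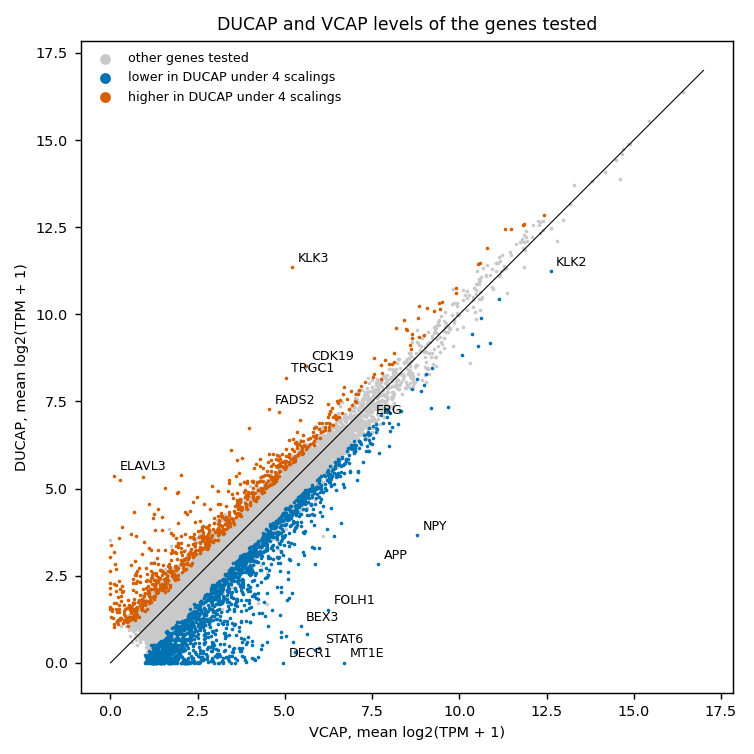
Mean level of each of the 13551 tested genes in VCAP (x axis) and DUCAP (y axis), both as log2(TPM + 1), with the diagonal of equal levels. Orange points are the 771 genes higher and blue points the 1642 genes lower in DUCAP under all 4 scalings. KLK3 lies far above the diagonal, and MT1E and DECR1 lie at 0 in DUCAP.

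KLK3 showed the largest increase in DUCAP on the log2(TPM + 1) scale. ELAVL3 stood above it after quantile normalization (log2 fold change 5.73 against 5.51 for KLK3) and by the ratio of means (506). That ratio rests on VCAP values of 0.13 and 0.03 TPM, and no ratio exists for genes listed at 0 in VCAP, such as MAGEA2B. KLK3 was expressed at 2625 and 2583 TPM in the DUCAP repeats and at 45.25 and 28.3 TPM in VCAP, a ratio of means of 70.8. Its log2 fold change was 6.14 with a standard error of 0.29 (adjusted p = 2.7e-06, limma). VCAP thus lay well below LNCAP as well, whose mean was 1770 TPM. KLK2, the neighbouring gene, encodes a kallikrein that can activate the KLK3 protein, and it went the other way. It stood at 2482 and 2331 TPM in DUCAP and at 8172 and 4821 TPM in VCAP, with a log2 fold change of −1.38 (standard error 0.25, adjusted p = 0.0044, limma). KLK2 was not called with a pseudocount of 0.1 (adjusted p = 0.090, limma). The summed level of KLK2 and KLK3 was 5107 and 4915 TPM in DUCAP and 8217 and 4849 TPM in VCAP, so the lines overlapped. The genes are close paralogs between which RSEM had to divide reads, and the part of that division in their opposite directions was not tested. KLK4, another kallikrein of this cluster, was at 82.6 and 102 TPM in DUCAP and 138 and 103 TPM in VCAP and was not called (log2 fold change −0.37, adjusted p = 0.51, limma).

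The upstream sequences of KLK3 and KLK2 are shown because the genes moved apart although these stretches are alike. Each run is the 250 bases before the RefSeq start, on the plus strand of GRCh38.p14, at chr19:50854665-50854914 for KLK3 and chr19:50873189-50873438 for KLK2. Capitals mark the 5-letter half-site GAACA of the androgen response element, searched on both strands (TGTTC on the other). It occurred 1 time in each, and 30.7% of all 27305 upstream stretches of this length in the table hold it.
KLK3: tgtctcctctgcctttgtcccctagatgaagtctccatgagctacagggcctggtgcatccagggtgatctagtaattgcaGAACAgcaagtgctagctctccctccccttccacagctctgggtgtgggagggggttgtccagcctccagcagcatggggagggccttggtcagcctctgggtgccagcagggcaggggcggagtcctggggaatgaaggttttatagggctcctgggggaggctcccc
KLK2: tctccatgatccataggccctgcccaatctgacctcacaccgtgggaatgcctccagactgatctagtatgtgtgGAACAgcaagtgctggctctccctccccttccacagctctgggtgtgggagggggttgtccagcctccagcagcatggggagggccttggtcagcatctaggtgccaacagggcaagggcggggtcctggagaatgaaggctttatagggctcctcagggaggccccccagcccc
In a global alignment, 205 of 259 columns were identical (79.2%), and the longest identical run was 80 bases. A match of this kind describes the reference sequence and says nothing of which factor binds it in either line.

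Among luminal prostate genes, more were lower than higher in DUCAP, and many were not called. Of 26 tested genes of the luminal list, KLK3 and KLK2 included, 3 were higher and 11 lower under all 4 scalings, beside the 5.69 and 12.1% of all genes. FOLH1, which encodes the prostate-specific membrane antigen (PSMA), stood at 1.77 and 1.99 TPM in DUCAP and at 70.75 and 78.4 TPM in VCAP, a ratio of means of 39.7. Its log2 fold change was −4.71 (adjusted p = 0.0014, limma). The standard error was 0.69 in this fit, in which the PC3 repeats stood at 4.97 and 40.9 TPM, and in a fit of the 4 samples alone the adjusted p was 8.3e-07 (limma). TRPM8, a cold-sensing ion channel of the prostate epithelium, was at 0.29 TPM in both DUCAP repeats and at 53.8 and 62.0 TPM in VCAP (log2 fold change −5.51, standard error 0.17, adjusted p = 2.4e-07, limma). NPY, a neuropeptide that prostate tumours can secrete, was at 9.79 and 13.9 TPM in DUCAP and at 490 and 402 TPM in VCAP. ACPP, the prostatic acid phosphatase, was at 480 and 687 TPM in DUCAP and at 1952 and 1829 TPM in VCAP (log2 fold change −1.72). The membrane reductases STEAP1 (−1.37) and STEAP2 (−1.55) and the secreted matrix protein SPON2 (−1.43) were lower too.

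In the other direction stood TRGC1 and AMACR. TRGC1, the T cell receptor gamma constant gene from which prostate cells make the TARP transcript, was at 267 and 313 TPM in DUCAP and at 35.5 and 28.2 TPM in VCAP (log2 fold change 3.15, standard error 0.33, adjusted p = 2.3e-04, limma). AMACR, a racemase of branched fatty acid oxidation used as a tissue marker of prostate cancer, was at 62.4 and 49.4 TPM against 27.4 and 26 TPM (log2 fold change 1.03). The epithelial adhesion genes EPCAM (−0.17) and CDH1 (−0.10) were not called. High and low luminal genes were thus mixed within each line.

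**Figure D2:**
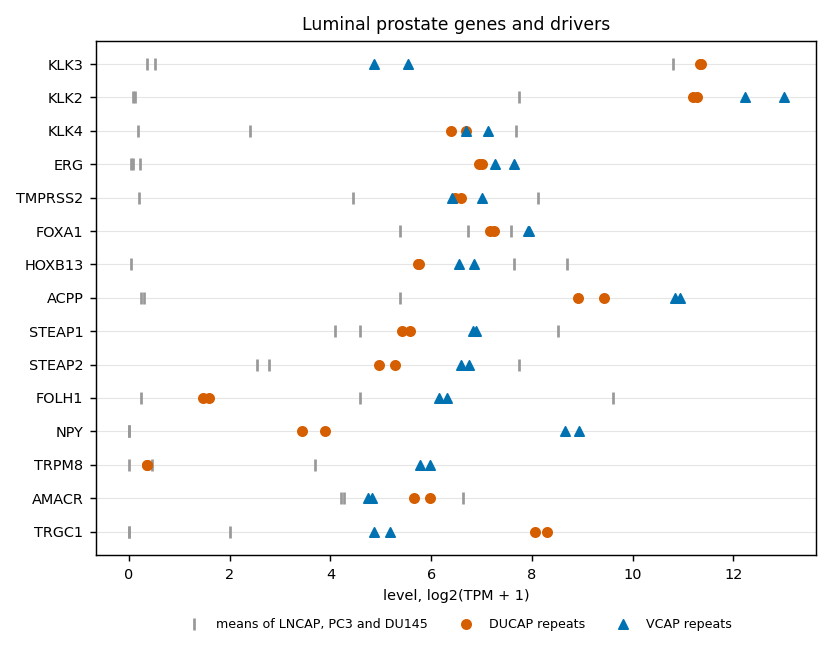
Level of luminal prostate genes and drivers as log2(TPM + 1) in the 2 DUCAP repeats (orange circles) and the 2 VCAP repeats (blue triangles), with grey ticks for the means of LNCAP, PC3 and DU145. The lines are furthest apart in KLK3, TRPM8, NPY and FOLH1, and they overlap in TMPRSS2 and all but touch in KLK4.

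Transcription factors that act with androgen differed less. ERG had a log2 fold change of −0.48 (standard error 0.17) and was not called (adjusted p = 0.069, limma). TMPRSS2 overlapped between the lines, at 95.8 and 87.9 TPM in DUCAP and 127 and 84.5 TPM in VCAP. Of 17 tested genes of the androgen cofactor list, 1 was higher and 4 were lower under all 4 scalings. Of the 15 that did not pass the filter through 1 line alone, 1 was higher and 3 lower. These are 6.67 and 20%, beside 5.1 and 8.54% of all such genes. Among the lower was FOXA1, which opens chromatin for other factors, at 142 and 151 TPM against 242 and 245 TPM (log2 fold change −0.73). The homeobox factor HOXB13 was lower too, at 52.1 and 53.4 TPM against 115 and 93.3 TPM (log2 fold change −0.96). The glucocorticoid receptor gene NR3C1 was lower as well and was low in both lines, at 0.20 and 0.55 TPM in DUCAP and 2.25 and 1.41 TPM in VCAP. It passed the filter through VCAP alone.

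Androgen-induced genes outside the kallikreins did not share a direction. Of 33 tested, 4 were higher and 3 lower under all 4 scalings. Of the 4, 2 passed the filter through DUCAP alone, and of the 3, 1 passed through VCAP alone. Of the 30 that passed otherwise, 2 were higher and 2 lower (6.67% each), beside 5.1 and 8.54% of all such genes. SORD, the sorbitol dehydrogenase, rose to 75.9 and 95.6 TPM in DUCAP from 34.8 and 37.8 TPM in VCAP (log2 fold change 1.21), and EAF2 (1.31), the glucocorticoid-induced factor TSC22D3 and the metalloreductase STEAP4 (1.66) were higher at levels under 5 TPM. KCNN2, a potassium channel, was at 1.68 and 2.48 TPM in DUCAP and at 14.5 and 16.5 TPM in VCAP (log2 fold change −2.43), and VIPR1 (−1.25) and ADAM7 (−1.11) were lower. The lists of androgen metabolism held 2 lower and 0 higher of 11 genes, namely HSD17B6 (−1.87), an oxidative 3-alpha-hydroxysteroid dehydrogenase, and RDH11 (−1.09), a retinal reductase. UGT2B15 and UGT2B17 encode the enzymes that glucuronidate dihydrotestosterone and testosterone, and both were higher in DUCAP. UGT2B15 stood at 37.9 and 35.8 TPM against 8.50 and 10.65 TPM (log2 fold change 1.85, standard error 0.18, adjusted p = 1.3e-04, limma), and UGT2B17 at 4.70 and 5.16 TPM against 2.06 and 2.84 TPM. These genes are close paralogs, so their separate levels are uncertain.

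Of 25 tested genes reported to rise with ERG, 3 were higher and 6 lower under all 4 scalings. CRISP3, a secreted cysteine-rich protein, was at 921 and 907 TPM in DUCAP and at 333 and 348 TPM in VCAP (log2 fold change 1.42, standard error 0.14, adjusted p = 1.3e-04, limma). The metalloprotease ADAMTS1 and the Hippo pathway coactivator YAP1 (1.05) were also higher. The WNT receptor FZD4 (−1.19) and HLA-DMB (−1.46), which loads class II antigens, were lower, while EZH2 (−0.06), LEF1 (0.07) and TDRD1 (0.07) were not called. Of the 17 ETS factors tested, 2 were higher and 0 lower under all 4 scalings. ETV1 passed the filter through DUCAP alone. Of the 16 that passed otherwise, 1 was higher (6.25%), near the 5.1% of all such genes. This was ELF5, which was not called in the fit of the 4 samples alone (adjusted p = 0.075, limma). ETV1 was at 2.83 and 4.51 TPM against 0.25 and 0.27 TPM, and ELF5 at 5.60 and 6.38 TPM against 3.98 and 3.72 TPM.

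Several neuroendocrine markers were far lower in DUCAP. Prostate cancer can take on such a programme, in which cells make the granins of secretory granules and synaptic proteins. Of 32 list genes, 15 were tested, and under all 4 scalings 10 were lower and 2 higher. Of the 10, 6 passed the filter through VCAP alone, namely CHGA, CHGB, SCG2, SNAP25, SRRM4 and NCAM1, so the count is no support for a direction of the list. Of the 8 that passed otherwise, 4 were lower (SCG3, SYP, UCHL1 and SCGN) and 1 higher. The granin CHGB stood at 0.46 and 0.56 TPM in DUCAP and at 33.75 and 39.3 TPM in VCAP, with a log2 fold change of −4.63 (standard error 0.14, adjusted p = 2.4e-07, limma). CHGA, the serum marker chromogranin A, stood at 0.91 and 0.80 TPM against 29.6 and 28.1 TPM (log2 fold change −4.01, standard error 0.14, adjusted p = 5.7e-07, limma). SCG3, another granin, was at 2.75 and 3.23 TPM against 19.04 and 23.8 TPM, and SCG2 at 0.41 and 0.57 TPM against 3.92 and 5.75 TPM.

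SYP, or synaptophysin, was at 4.32 and 5.13 TPM in DUCAP and at 21.65 and 22.1 TPM in VCAP (log2 fold change −2.00). SNAP25, which drives vesicle fusion, was at 0.04 and 0 TPM against 3.77 and 3.79 TPM. SRRM4, a neural splicing factor, was at 0 and 0.01 TPM against 3.92 and 3.57 TPM, and UCHL1 at 2.37 and 3.19 TPM against 14.3 and 18.97 TPM, a call lost with no filter (adjusted p = 0.085, limma). NCAM1 (CD56) and SCGN were lower as well. Not called were the Notch ligand DLL3 (−0.32), ONECUT2 (−0.28) and ENO2 (0.13). INSM1, a transcription factor of this lineage, was slightly higher in DUCAP at 2.97 and 3.63 TPM against 2.13 and 2.09 TPM, as was SYT11, a synaptotagmin that passed the filter through DUCAP alone. In LNCAP, PC3 and DU145 the mean of CHGA and of CHGB was at most 0.08 TPM, so VCAP stood apart from the other 4 lines in both.

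The stretch upstream of CHGA is shown because it carries a cAMP response element, a known control site of this gene. The 250 bases before the start used in the RefSeq sequence table lie at chr14:92922900-92923149 (GRCh38.p14, plus strand). The span of CHGA in RefSeq opens further upstream, at 92922664, so this is the start of 1 of its transcripts. Capitals mark the motif TGACGTCA, which reads the same on both strands. It is present in 1.77% of all upstream stretches.
CHGA: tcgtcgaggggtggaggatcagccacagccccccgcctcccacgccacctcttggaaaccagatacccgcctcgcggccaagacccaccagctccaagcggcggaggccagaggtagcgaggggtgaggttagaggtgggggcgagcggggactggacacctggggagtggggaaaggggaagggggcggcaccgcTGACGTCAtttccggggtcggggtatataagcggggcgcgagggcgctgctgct

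**Figure D3:**
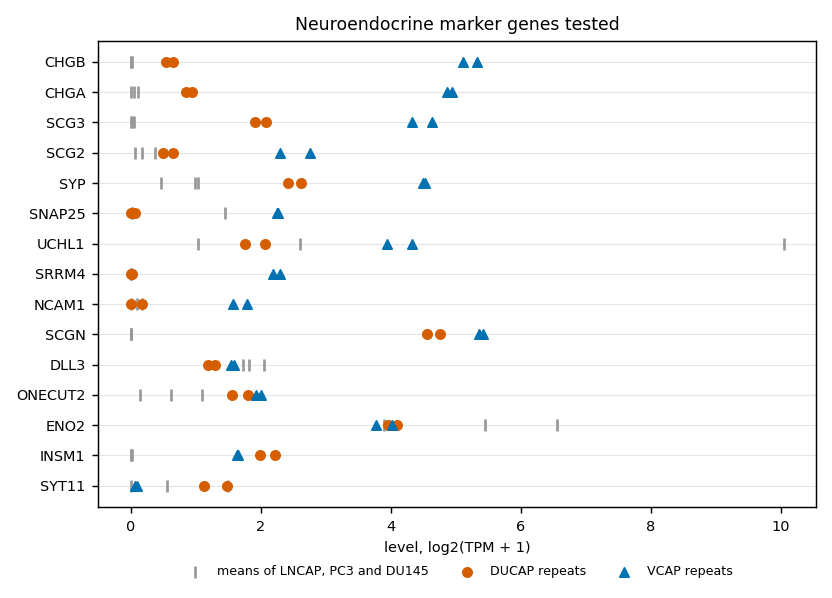
Level of the 15 tested neuroendocrine marker genes as log2(TPM + 1) in the 2 DUCAP repeats (orange circles) and the 2 VCAP repeats (blue triangles), with grey ticks for the means of LNCAP, PC3 and DU145. The VCAP repeats lie above the DUCAP repeats in the granins CHGB, CHGA, SCG3 and SCG2, and SYT11 and INSM1 show the opposite order.

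Several genes with high levels in VCAP were almost absent from DUCAP. DECR1, a mitochondrial reductase needed to oxidise polyunsaturated fatty acids, was listed at 0 in both DUCAP repeats, at 30.9 and 28.95 TPM in VCAP and at 55.3 TPM or more in every sample of the other lines (adjusted p = 2.4e-07, limma). STAT6, which carries the signal of interleukins 4 and 13, was at 0.53 and 0.18 TPM in DUCAP and at 73.8 and 52.8 TPM in VCAP (log2 fold change −5.56, standard error 0.23, adjusted p = 1.6e-06, limma). Its mean was 1.16 TPM in LNCAP and 40.2 TPM in PC3. APP, the amyloid precursor protein gene, was at 6.65 and 5.64 TPM in DUCAP and at 168 and 246 TPM in VCAP (log2 fold change −4.84, standard error 0.24, adjusted p = 3.5e-06, limma), with means of at least 154 TPM in the other lines. MGP, a calcification inhibitor of the matrix, was at 0.62 and 0.79 TPM against 35.3 and 28.5 TPM.

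Metallothioneins buffer zinc, which prostate cells hold in unusual amounts. MT1E was listed at 0 in both DUCAP repeats and stood at 115 and 91.6 TPM in VCAP (adjusted p = 2.4e-07, limma). MT1F was also listed at 0 in DUCAP, against 3.71 and 2.55 TPM, and MT2A was at 60.4 and 95.5 TPM against 232 and 138 TPM (log2 fold change −1.23). MT1X was at 13.2 and 21.3 TPM against 36.6 and 26.2 TPM and was not called (adjusted p = 0.15, limma), though it was in the fit of the 4 samples alone (adjusted p = 0.037, limma). These genes are near-identical copies, so the division of reads among them is uncertain. Over the list of 23 zinc transporters and metallothioneins, 0 were higher and 5 lower under all 4 scalings, and 2 of the 5 passed the filter through VCAP alone. The zinc exporter SLC30A4 was at 1.93 and 3.16 TPM in DUCAP and at 13.3 and 14.2 TPM in VCAP.

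The genes that rose most in DUCAP after KLK3 are known for different functions. ELAVL3, a neuronal RNA-binding protein that is not in the neuroendocrine list, was at 39.4 and 41.6 TPM in DUCAP and at 0.13 and 0.03 TPM in VCAP, and its mean was at most 0.005 TPM in the other lines (log2 fold change 5.26, standard error 0.13, adjusted p = 2.4e-07, limma). SPOCK2, an extracellular proteoglycan, was at 33.3 and 47.3 TPM against 0.76 and 1.04 TPM (log2 fold change 4.42). LBH, a transcriptional regulator of limb and heart development, rose by 3.66 and RGS4, which shortens G protein signals, by 3.44 on the log2 scale. ADGRF1, an adhesion receptor, rose by 3.39, and BASP1, a membrane-cytoskeleton protein, by 3.34. FGL1, a secreted fibrinogen-like protein, rose by 3.05. CDK19, a kinase of the Mediator complex, was at 371 and 365 TPM in DUCAP and at 45.4 and 50.4 TPM in VCAP (log2 fold change 2.92, adjusted p = 3.0e-05, limma), a high absolute level. GSTA1, a glutathione transferase, was at 15.4 and 21.75 TPM against 1.07 and 1.75 TPM.

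Few genes were off in exactly 1 of the lines. With both repeats of a line under 0.1 TPM and both of the other at 5 TPM or more, 4 genes were on in DUCAP alone and 18 in VCAP alone. The 4 were the melanoma antigen genes MAGEA6, MAGEA3 and MAGEA2B and the clone AC073261.1, which limma did not call (adjusted p = 0.14). MAGEA6 was at 8.33 and 10.5 TPM in DUCAP, and MAGEA3 at 7.41 and 8.89 TPM. These cancer-testis genes are near-identical, so the share of each is uncertain. LNCAP expressed MAGEA3 at 138 TPM. Beside MT1E and DECR1, the genes on in VCAP alone included WNT2, a WNT ligand, at 17.9 and 15.6 TPM, which was at most 0.11 TPM in every sample of the other lines. RIMKLB, an amino acid ligase, was at 13.3 and 13.96 TPM, and XKR7 at 11.3 and 11.5 TPM. The inflammasome gene NLRP2 was at 9.64 and 10.5 TPM, and the glutamate receptor gene GRIA2 at 7.11 and 8.13 TPM. Here alone refers to the 2 compared lines. MT1E was at 651 and 479 TPM in DU145, NLRP2 at 22.0 and 22.5 TPM in LNCAP, and RIMKLB at 3.91 to 14.3 TPM in the other lines. XKR7 and GRIA2 were at most 0.02 TPM in every sample of the other lines. All cancer-testis genes called were of the MAGEA family, 3 of the 5 tested. These 3 passed the filter through DUCAP alone, and of the 2 that passed otherwise 0 were called. The count is therefore no support for a direction of the list.

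Antigen presentation genes were nearly silent in DUCAP in several cases and low in VCAP. HLA class I molecules, with B2M, show peptides to T cells. Of 18 tested genes, 0 were higher and 8 lower under all 4 scalings, but 7 of the 8 passed the filter through VCAP alone. Of the 9 that passed otherwise, HLA-DMB was the 1 lower gene. HLA-B was at 0.06 and 0.16 TPM in DUCAP and at 10.4 and 11.5 TPM in VCAP (log2 fold change −3.43, standard error 0.17, adjusted p = 3.7e-06, limma), and HLA-C at 0.17 and 0.11 TPM against 7.50 and 8.10 TPM. The class II genes HLA-DPB1, HLA-DPA1 and HLA-DRB1 were at 0 to 0.42 TPM in DUCAP and at 1.58 to 7.72 TPM in VCAP. PSMB8, of the immunoproteasome, was lower (−1.45), whereas B2M stood at 526 and 623 TPM in DUCAP and at 414 and 480 TPM in VCAP and was not called. HLA genes are polymorphic and alike, which makes their levels uncertain. Of 20 interferon genes, 0 were higher and 3 lower, 2 of which passed the filter through VCAP alone, UBE2L6 (−2.38), OAS3 (−1.21) and IFIT5 (−1.07). Of 8 cytokine genes, the chemokine CX3CL1 was higher and CCL28 and the adhesion receptor ICAM1 were lower. CX3CL1 passed the filter through DUCAP alone, and 1 of the lower genes through VCAP alone. Of the 6 that passed otherwise, 0 were higher and 1 lower.

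Of 14 tested regulators of the G1 phase, 4 were lower and 1 higher in DUCAP under all 4 scalings, and they include both brakes and drivers of the cycle. CDKN1A (p21), an inhibitor of cyclin-dependent kinases, was at 2.98 and 4.22 TPM in DUCAP and at 23.7 and 34.1 TPM in VCAP (log2 fold change −2.69, standard error 0.32, adjusted p = 4.9e-04, limma). CCND1, or cyclin D1, was at 34.1 and 40.0 TPM against 137 and 129 TPM (log2 fold change −1.82). The inhibitor CDKN2C (−1.72) and RB1 (−0.93) were lower, and CDKN2A (p16) was higher at 7.53 and 7.55 TPM against 3.44 and 2.82 TPM. Of 18 tested genes that DNA damage induces, 7 were lower and 1 higher under all 4 scalings. The death receptor FAS was at 14.1 and 11.7 TPM against 40.7 and 52.65 TPM, and MDM2, a ubiquitin ligase, was at 21.4 and 30.9 TPM against 48.1 and 71.2 TPM. DDB2 (−1.02), XPC (−0.97), SESN1 (−1.07) and FDXR (−0.76) were among the lower members too. The stress cytokine GDF15 was the higher member at 23.1 and 10.5 TPM against 6.36 and 3.81 TPM, while BAX (−0.26) was not called.

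Of 46 replication and mitosis genes, limma called 0, and 1 had an unadjusted p under 0.05. RRM2 was at 31.5 and 45.1 TPM in DUCAP and at 55.85 and 93.5 TPM in VCAP, and PLK1 at 97.5 and 127 TPM against 67.0 and 104 TPM. The lines overlapped in PLK1 and not in RRM2. Neither gene was called, though RRM2 was in the fit of the 4 samples alone (adjusted p = 0.030, limma). Of 20 immediate early genes, limma called 0 as well, and 3 had an unadjusted p under 0.05. FOS stood at 196 and 18.4 TPM in the DUCAP repeats and JUN at 110 and 22.0 TPM, a gap within DUCAP that exceeded the gap between the lines. Of 33 DNA repair genes, 1 was higher and 2 lower. MSH6, which recognises mismatched bases, was at 1.61 and 1.97 TPM against 11.9 and 12.8 TPM (log2 fold change −2.26, standard error 0.17, adjusted p = 3.5e-05, limma). PMS2, also of mismatch repair, was lower (−0.74).

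Nuclear genes of the respiratory chain and genes of lipid synthesis rose in DUCAP where they differed. Of 43 oxidative phosphorylation genes, 9 were higher and 0 lower under all 4 scalings, and their median log2 fold change was 0.28 against −0.17 for all genes. UQCRC2, a core protein of complex III, was at 191 and 227 TPM in DUCAP and at 98.0 and 104 TPM in VCAP (log2 fold change 1.04, standard error 0.14, adjusted p = 8.6e-04, limma). CYC1 (0.94), also of complex III, and the complex I subunits NDUFB7 (1.03) and NDUFB5 (0.75) were higher. The 13 mitochondrially encoded members of these complexes held 0 calls in either direction under all 4 scalings. Of 35 cholesterol and fatty acid genes, 6 were higher and 0 lower. FADS2, the delta-6 desaturase that opens the synthesis of long polyunsaturated fatty acids, was at 139 and 173 TPM in DUCAP and at 20.1 and 24.8 TPM in VCAP (log2 fold change 2.74, standard error 0.22, adjusted p = 4.5e-05, limma). FDFT1, or squalene synthase, rose by 0.94 and FDPS, which makes its substrate, by 0.88 on the log2 scale.

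Ribosomal protein genes took 19.9 and 18.9% of all TPM in DUCAP and 15.7 and 15.6% in VCAP (exact permutation test, two-sided, p = 0.333, the smallest possible). Of 68 genes, 26 were called higher and 3 lower, and 11 and 1 under all 4 scalings. RPS2 was at 5567 and 5609 TPM in DUCAP and at 2991 and 2192 TPM in VCAP, whereas RPL10, on the long arm of X, was at 1426 and 1363 TPM against 2371 and 2176 TPM. Many ribosomal protein genes have processed pseudogenes that can share reads. Of 29 unfolded protein response and ATF4 genes, 4 were lower and 1 higher, a share near that of all genes. Among the lower were HSP90B1, a chaperone of the endoplasmic reticulum, at 434 and 473 TPM against 984 and 1173 TPM (log2 fold change −1.25) and MANF at 101 and 132 TPM against 263 and 346 TPM (−1.38). HSPA5, the main chaperone there, was at 135 and 172 TPM against 269 and 329 TPM and passed the main test (−0.96) and not all scalings. Of 12 heat shock genes only HSPA1A was called (−1.57), and its level was under 4 TPM.

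**Figure D4:**
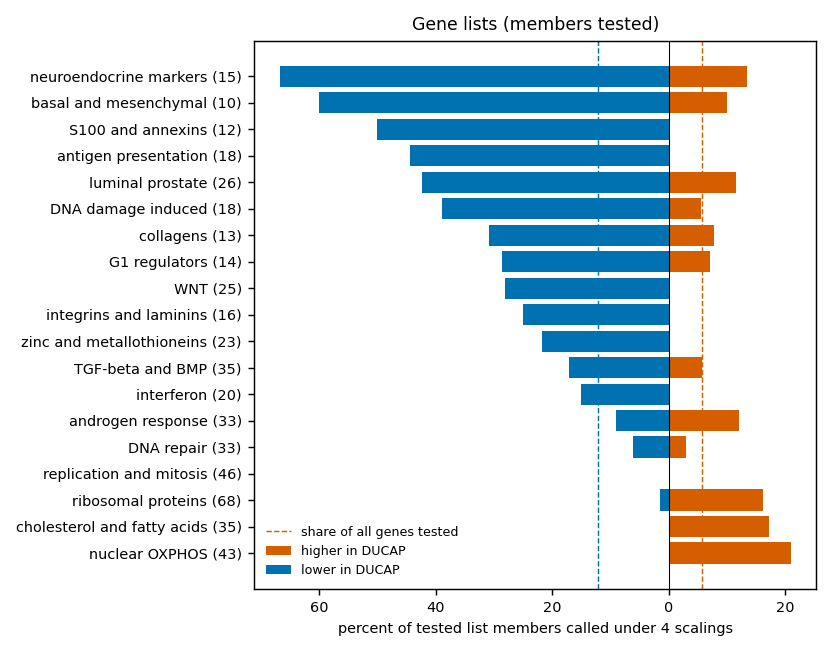
Percent of the tested members of 19 gene lists that were higher (orange, to the right) or lower (blue, to the left) in DUCAP under all 4 scalings, with the number tested in brackets. Dashed lines mark the shares over all genes tested, 5.69% higher and 12.1% lower. Members that passed the filter through 1 line alone are included, and the replication and mitosis list has none in either direction.

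In the signalling lists lower genes outnumbered higher ones, as they did over all genes. Of 35 TGF-beta and BMP genes, 2 were higher and 6 lower under all 4 scalings. ID1, ID2 and ID4, inhibitors of basic helix-loop-helix factors that BMP signals induce, were lower. ID2 stood at 17.8 and 17.7 TPM in DUCAP and at 57.2 and 76.9 TPM in VCAP (log2 fold change −1.85), ID1 at 4.67 and 2.32 TPM against 13.3 and 15.8 TPM (−1.84), and ID4 at 6.74 and 6.70 TPM against 13.3 and 15.4 TPM (−0.98). ID3, at −1.40, passed the main test and not all scalings. LTBP1, which stores latent TGF-beta in the matrix, was higher at 13.8 and 20.7 TPM against 1.15 and 1.48 TPM (log2 fold change 2.95, standard error 0.29, adjusted p = 1.7e-04, limma). Of 25 WNT genes, 0 were higher and 7 lower, 3 of which passed the filter through VCAP alone. Beside WNT2 the 7 included the secreted inhibitor SFRP1 (−1.83), the inhibitor APCDD1 (−1.44) and the coreceptor LRP6 (−0.80). Ligand, receptor and inhibitor genes were thus all among the 7. Of 13 Notch genes, 0 were higher and 2 lower, the ligand JAG1 (−2.11) and DTX1 (−1.11), and 1 of the 2 passed the filter through VCAP alone.

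Of 32 receptor tyrosine kinase and ligand genes, 3 were higher and 7 lower. FGFR1 was at 32.6 and 36.6 TPM in DUCAP and at 14.7 and 13.4 TPM in VCAP (log2 fold change 1.24). The collagen receptor DDR1 was at 9.11 and 8.58 TPM against 66.1 and 59.1 TPM (log2 fold change −2.69, standard error 0.22, adjusted p = 5.3e-05, limma), and the growth factor HGF at 5.64 and 7.90 TPM against 27.4 and 43.7 TPM. Of 14 genes of the insulin-like growth factor axis, 0 were higher and 1 lower, the binding protein IGFBP3 at 3.14 and 8.01 TPM against 29.1 and 37.6 TPM.

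Lower genes also outnumbered higher ones among genes of cell contact and matrix, in part through genes that passed the filter through VCAP alone. Of 12 S100 and annexin genes, 0 were higher and 6 lower. ANXA2 was at 2.91 and 3.09 TPM in DUCAP and at 29.8 and 43.2 TPM in VCAP (log2 fold change −3.21, standard error 0.19, adjusted p = 9.1e-06, limma), and ANXA3 (−2.37) and ANXA5 (−1.44) were lower, whereas S100A10, the partner protein of ANXA2, was not called (0.06). Of 10 basal and mesenchymal genes, 6 were lower and 1 higher, of which 4 passed the filter through VCAP alone and 1 through DUCAP alone, with the matrix protein TNC at 0.73 and 0.68 TPM against 10.4 and 7.68 TPM, CALD1 at 12.99 and 15.8 TPM against 38.6 and 47.9 TPM, and SNAI1 the higher at 2.29 and 1.85 TPM against 0.49 and 0.40 TPM. Of 16 integrins and laminins, 0 were higher and 4 lower, among them ITGA3 (−1.50). Of the 4, 3 passed the filter through VCAP alone. Of the 12 that passed otherwise 1 was lower (8.33%), near the 8.54% of all such genes. Of 13 collagens 1 was higher, COL4A6 (1.55), and 4 were lower. The higher collagen passed through DUCAP alone and 3 of the lower ones through VCAP alone. Of 5 keratins 0 were higher and 2 lower, KRT19 (−2.46) and KRT14 (−1.55), of which 1 passed through VCAP alone. Of 28 junction genes 0 were higher and 3 lower, with CLDN8 at 4.01 and 4.72 TPM against 28.4 and 37.8 TPM. Of the 27 junction genes that did not pass through VCAP alone, 2 were lower (7.41%). Of 18 surface antigen genes 1 was higher, TM4SF1 (1.25), and 4 were lower.

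The remaining lists are given as counts beside the 5.69% higher and 12.1% lower over all genes, and their direction was not tested. Of 28 NRF2 and detoxification genes, 4 were higher and 4 lower, with GPX3, the plasma glutathione peroxidase, at 1.51 and 2.25 TPM against 19.15 and 29.2 TPM. Among 20 proteases 3 were higher and 2 lower, and the 2 lower passed the filter through VCAP alone. Of the 18 that passed otherwise, 3 were higher and 0 lower. The membrane peptidase MME was at 9.74 and 15.6 TPM against 1.37 and 3.68 TPM, and PRSS8 at 0.61 and 0.70 TPM against 14.6 and 10.3 TPM. Of 19 polyamine genes 3 were higher and 2 lower, with the arginase ARG2 at −2.45. Of 32 glycolysis and hypoxia genes 4 were higher, among them VEGFA (1.02), and 2 lower, among them PGK1 (−1.13). Of 49 chromatin genes 1 was higher, SMARCA2 (0.55), and 4 were lower, with the methyltransferase DNMT3A at 4.04 and 3.46 TPM against 13.98 and 11.9 TPM. Of 13 HOX genes 2 were higher, HOXA11 (1.35) and HOXC9 (1.16), and 3 were lower, HOXA13 (−1.04) and HOXD8 (−1.40) among them. Of 25 ABC transporters 2 were higher and 2 lower, and of 15 BCL2 family genes 1 was higher and 1 lower. Of 10 genes often silenced by promoter methylation 2 were higher and 3 lower, and of 15 imprinted genes 0 and 2. These counts hold genes that passed the filter through 1 line alone. In the NRF2 and the methylation list these were 1 higher and 1 lower gene each. In the polyamine, glycolysis, HOX, ABC transporter and imprinted lists there was 1 lower gene each.

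Of 16 long non-coding RNAs of prostate cancer, 2 were higher and 3 lower, and 1 of the 3 passed the filter through VCAP alone. DRAIC was at 124 and 126 TPM in DUCAP and at 41.6 and 42.8 TPM in VCAP (log2 fold change 1.55), and ARLNC1, which androgen induces, at 5.53 and 5.72 TPM against 0.65 and 1.49 TPM (1.71). PCAT14 was at 62.2 and 72.5 TPM against 157 and 164 TPM (−1.25), and PCAT19 at 0.17 and 0.52 TPM against 12.2 and 13.2 TPM (−3.36).

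The called genes were spread unevenly over the chromosomes. Of the tested genes, 12548 matched a RefSeq symbol on GRCh38.p14. By chromosome, the median log2 fold change minus that of all genes ranged from −0.44 on chromosome 21 to 0.35 on chromosome 16. On chromosome 21, which carries TMPRSS2, ERG and APP, 45 of 148 genes were lower (30.4%) and 4 higher under all 4 scalings. The median was below that of all genes in all 4 pairs of a DUCAP with a VCAP repeat, by 0.37 to 0.48. Chromosomes 4 (−0.34), 7 (−0.26) and 13 (−0.23) followed.

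**Figure D5:**
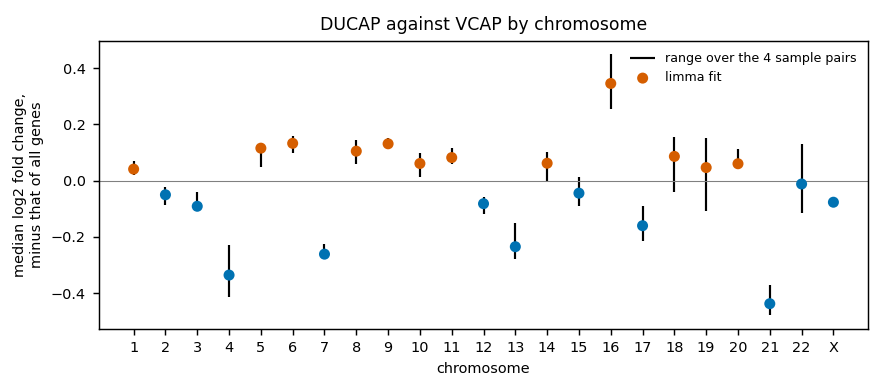
Median log2 fold change of the tested genes on each chromosome, DUCAP against VCAP, minus the median of all genes (dots, limma fit), with the range over the 4 pairs of a DUCAP and a VCAP repeat (bars). Chromosome 16 lies highest at 0.35 and chromosome 21 lowest at −0.44.

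On some chromosomes the shift differed between stretches, whereas on chromosome 4 every 10 Mb stretch with at least 15 tested genes lay below the median of all genes. The bounds below were chosen after the values had been seen, so the counts are descriptions. On chromosome 16, the first 40 Mb held 67 higher and 8 lower genes of 325, a median 0.54 above that of all genes, and the rest held 11 higher and 19 lower of 236, with a median 0.04 above. RPS2, UQCRC2 and FOPNL, all higher, lie in the first stretch, and so do the lower genes PRSS8 and NME4. On chromosome 19, the first 30 Mb held 84 higher and 16 lower of 416, while the part from 30 Mb on held 3 higher and 99 lower of 484. KLK3 was thus 1 of 3 higher genes in a stretch where 20.5% were lower. On X, the part from 130 Mb on held 54 lower genes of 95 (56.8%) and 5 higher, the lower led by RTL8C at 0.17 and 0.49 TPM against 22.7 and 15.6 TPM and LDOC1 at 0.38 and 0.24 TPM against 10.85 and 10.1 TPM. The end of chromosome 8, from 140 Mb on, held 19 higher genes and 1 lower of 73, with RPL8, EEF1D and VPS28 among the higher. The first 30 Mb of chromosome 2 held 1 higher and 45 lower of 112, with ID2 and SH3YL1, and chromosome 17 from 50 Mb on held 2 higher and 66 lower of 272, against 6 higher and 13 lower of 246 in its first 30 Mb.

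A run of neighbouring tested genes on the long arm of X was lower in DUCAP. BEX1, a small adaptor protein of the nervous system, was at 0.27 and 0.23 TPM in DUCAP and at 34.4 and 41.8 TPM in VCAP (log2 fold change −4.96, standard error 0.15, adjusted p = 2.4e-07, limma). The next 3 tested genes, BEX4 (−2.88), TCEAL8 (−2.65) and BEX2 (−1.36), were lower too, while the 3 before BEX1, GPRASP2, BHLHB9 and LINC00630, were not called. BEX1, BEX4 and BEX2 were under 1 TPM in DUCAP and passed the filter through VCAP alone, so they had little room to be higher. BEX5, listed at 0 in both lines, was not tested. BEX3, of the same family, was at 0.68 and 1.55 TPM against 42.2 and 43.2 TPM, and at 131 TPM or more as the mean of each other line.

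Several of the large single differences were not matched in size by the flanking genes. The tested genes on either side of STAT6, NAB2 (−0.87) and LRP1 (−0.72), stayed within 1 on the log2 scale, against −5.56 for STAT6. Beside DECR1 lie NBN (−0.59) and TMEM64 (−0.57), and beside APP lie GABPA (−0.60) and ADAMTS1, which was higher. NAB2, NBN and GABPA were called lower in the main test and not under all 4 scalings. CDK19 lies between CDC40 (−0.02) and AMD1 (−0.20), and SPOCK2 between CHST3 (−0.13) and ASCC1 (0.31). CHGB lies between SHLD1 (0.72) and TRMT6 (0.57), neither of them called. ELAVL3 lies between PRKCSH (0.40) and ZNF653 (0.39) in the higher part of chromosome 19. Other large differences had a neighbour that was lower under all 4 scalings. Beside NPY the next gene, OSBPL3, an oxysterol-binding protein, was lower as well (−3.36), and MT1E lies between MT2A and MT1F, both lower, as BEX1 does beside BEX4. OSBPL3, MT1F and BEX4 passed the filter through VCAP alone.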

How the data were processed

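RNA sequencing was compared between 2 biological repeats of DUCAP and 2 of VCAP. The authors deposited TPM per gene symbol. Per the submitters' processing notes, reads were handled with FastQC 0.11.9, Trim Galore 0.6.5, STAR 2.7.2b and RSEM 1.3.3 on GRCh38. TPM keep no depth, so depth is unknown and no counting intervals are given. Library polyA selection and RSEM's division of reads among paralogs can change levels.

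Genes reaching 1 TPM in 2 or more of the 4 libraries were tested on log2(TPM + 1) with limma 3.58.1 in R 4.3.3 (variance trend, all 10 samples in the fit, Benjamini-Hochberg adjustment over the 13551 genes, threshold 0.05). Fold changes on this scale understate the change of low genes. P-values measure the spread between 2 repeats a line. The 4 deposited TPM columns summed to 988887 to 991998. The scripts were tested on simulated data. Tables and figures used Python 3.11.15. Positions and upstream sequences came from RefSeq, GRCh38.p14. Alternatives were other pseudocounts, filters, scalings, variance models, a replicate block and leaving out each repeat. The rule for named genes took the genes with the largest changes, the listed markers and list members; other genes were chosen after their values were seen. The compared lines and the gene lists were chosen with earlier results of these data known. Some genes are not reported here.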

Additional observations from a re-analysis of the deposited data

How the results depend on the processing

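Of the counts of called genes (3398 in all, 818 higher, 2580 lower, 1361 at least 2-fold apart), those limited to a mean of at least 5 TPM were 1978, 518, 1460 and 630, with fewer genes tested. The number higher was 1658 with quantiles equalised and 1684 when scaled by median ratios. Calls under all 4 scalings, a set added after seeing the data, left 1642 lower. The median log2 fold change of all genes was −0.0622 without a filter, 0.0280 with quantiles equalised and 0.0168 when scaled by median ratios. Leaving out 1 repeat, 1624 to 2458 genes were called, 335 to 589 higher and 1200 to 1961 lower. The total was 1624 without DUCAP replicate 1 and 2020 without DUCAP replicate 2, the number higher 424, 335 and, without VCAP replicate 2, 497, and the number lower 1200, 1685 and, without VCAP replicate 1, 1701. With a replicate block 3216 genes were called, of which 3106 were shared with the 3398. The repeat numbers are not stated to pair samples, and the deviations of same-numbered samples correlated at 0.30 over 1 pair of lines. Of the 196 tested genes named in the report, 169 were called and 0 reversed. With all samples kept, 13 lost the call under some alternative: ELF5, GABPA, GDF15, HSPA5, ID3, INSM1, KLK2, KRT18, NAB2, NBN, SCGN, UCHL1 and VEGFA. Leaving out 1 repeat, 45 lost it at least once, 34 of them without DUCAP replicate 1, 24 without DUCAP replicate 2, 25 without VCAP replicate 1 and 21 without VCAP replicate 2. The cause of these shifts was not tested. Depth is unknown for TPM and limits the low genes most.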
